A study of Mus musculus with 16 samples.

Results

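The 40 genes described here sense DNA damage or repair it. Their probes were found by matching the accession of each non-control probe on the arrays to a RefSeq gene table, out of 22911 genes named in this way. The genes were sorted by role into damage kinases and checkpoint (9 genes), break sensing and mediators (8), homologous recombination and Fanconi anaemia (5), end joining (4), base excision and single-strand breaks (8), nucleotide excision (5) and mismatch repair (1). They have 66 probes, of which 59 passed the filter on dim signal. Chek2, a checkpoint kinase, and Fancd2, a central Fanconi anaemia protein, have no probe that passed, so 38 genes were measured, of 16737 measured genes in all.

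Cerebellar RNA of 16 mice was hybridised to 1-colour arrays, with 1 mouse per array and 4 mice per group: wild type (WT) and Atm-/- mice, each given plain water (veh) or nicotinamide riboside (NR). Atm-/- mice were homozygous for Atm tm1Bal (strain B6;129S4-Atm tm1Bal/J), an allele disrupted in every cell of the body, and WT mice were their littermates. NR is a precursor of NAD+, and for 2 months from the age of 6 weeks the NR groups had it in their water at 3.5 mg/ml, or 12 mM. All mice were labelled male and 3.5 months old. Each genotype had a slide of its own, with veh arrays in 1 row of it and NR arrays in the other. Genotype and slide, and treatment and row, cannot be told apart.

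ATM is a kinase that is switched on by double-strand breaks. It works beside ATR, which answers to single-stranded DNA, and DNA-PKcs (the product of Prkdc), which acts in end joining. ATM phosphorylates histone H2AX (H2afx) around a break, and MDC1, RNF8, RNF168 and 53BP1 (Trp53bp1) gather on that mark. Breaks are then rejoined by end joining or copied from the sister chromatid by homologous recombination, while excision pathways remove damaged bases, bulky adducts and mismatches. Loss of ATM causes ataxia telangiectasia, in which the cerebellum degenerates, and PARP enzymes use NAD+ when they mark DNA breaks. Much of the control of ATM signalling is by phosphorylation, which arrays of RNA do not read.

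To show what lies upstream of genes that moved together with NR, the 250 bases before the transcription start are given for the 5 of the 8 genes called in that comparison that RefSeq's promoter table (GRCm38.p6) lists: Lig4 and Msh6, which rose, and Ercc1, Xrcc1 and Apex1, which fell. The other 3 (H2afx, Rad9a and Xpc) are not in the table, nor are Prkdc, Rad50, Nbn, Fancd2 and Polb, and 32 of the 40 genes matched. Sequences run 5′ to 3′ on the strand of the gene, and capitals mark GC boxes (GGGCGG or its reverse complement CCGCCC) and CCAAT boxes (CCAAT or ATTGG).
Lig4, first start, chr8:9977681-9977930, minus strand: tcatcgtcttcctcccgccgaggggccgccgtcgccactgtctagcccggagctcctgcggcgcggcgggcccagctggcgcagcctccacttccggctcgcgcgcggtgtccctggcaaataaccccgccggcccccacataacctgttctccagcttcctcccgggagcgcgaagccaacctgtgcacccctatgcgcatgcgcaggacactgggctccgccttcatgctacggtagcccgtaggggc
Lig4, second start, chr8:9976312-9976561, minus strand: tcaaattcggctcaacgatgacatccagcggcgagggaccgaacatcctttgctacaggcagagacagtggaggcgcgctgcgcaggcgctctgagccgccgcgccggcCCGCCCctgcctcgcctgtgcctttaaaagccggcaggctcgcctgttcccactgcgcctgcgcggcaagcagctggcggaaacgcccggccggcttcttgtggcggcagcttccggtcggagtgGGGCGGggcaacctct
Msh6, chr17:87974800-87975049, plus strand: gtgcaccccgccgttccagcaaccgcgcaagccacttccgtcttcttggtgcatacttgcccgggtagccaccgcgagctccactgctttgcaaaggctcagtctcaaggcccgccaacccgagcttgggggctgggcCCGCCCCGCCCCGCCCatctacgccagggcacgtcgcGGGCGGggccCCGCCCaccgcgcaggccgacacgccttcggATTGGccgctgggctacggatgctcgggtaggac
Ercc1, chr7:19344821-19345070, plus strand: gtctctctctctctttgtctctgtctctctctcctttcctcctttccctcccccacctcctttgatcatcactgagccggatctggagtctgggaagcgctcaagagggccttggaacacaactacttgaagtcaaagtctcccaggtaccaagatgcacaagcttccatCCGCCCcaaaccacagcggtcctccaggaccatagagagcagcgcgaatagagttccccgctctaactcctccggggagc
Xrcc1, chr7:24546449-24546698, plus strand: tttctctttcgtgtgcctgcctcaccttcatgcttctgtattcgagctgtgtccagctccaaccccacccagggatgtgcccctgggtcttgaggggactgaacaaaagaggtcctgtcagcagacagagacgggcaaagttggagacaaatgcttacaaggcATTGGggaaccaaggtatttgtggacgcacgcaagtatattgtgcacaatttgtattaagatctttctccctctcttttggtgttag
Apex1, chr14:50924699-50924948, plus strand: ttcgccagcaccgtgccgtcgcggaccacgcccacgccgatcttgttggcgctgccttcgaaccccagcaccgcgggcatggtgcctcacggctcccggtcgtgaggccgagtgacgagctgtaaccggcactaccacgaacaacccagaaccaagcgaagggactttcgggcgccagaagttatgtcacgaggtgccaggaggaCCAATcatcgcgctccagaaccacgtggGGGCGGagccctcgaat

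Msh6 holds 5 GC boxes (3 of them overlapping) and 1 CCAAT box, Lig4 2 GC boxes at its second start and none at its first, Ercc1 1 GC box, Xrcc1 1 CCAAT box and Apex1 1 of each. Over all members in the table, 22 of 36 windows (61.1%) hold a GC box, against 32.7% of all 32851 windows of the same length, and 15 (41.7%) hold a CCAAT box, against 33.8%. The E2F letters TTTCCCGC are in 4 member windows (11.1%; Brca2, Chek2, Mdc1 and Xrcc6), against 0.895% of all windows, and TTTGGCGC in 0, against 0.417%. The CHR letters TTTGAA, the element of many mitotic genes, are in 3 (8.33%; Hus1, Rnf8 and Tdp1), against 16% of all windows. Both strands were searched for each motif. The median GC content of the windows is 58.6% for members and 52.4% for all. Neither kind of box separates the printed genes that rose from those that fell, since Msh6 and Apex1 hold both.

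The number of probes above background ran from 34945 to 37817 in Atm-/- NR and from 39134 to 41905 in Atm-/- veh, without overlap (two-sided exact permutation p = 0.0286, the smallest that 4 against 4 allows), and from 36402 to 42559 in WT. Its part in the differences between NR and veh was not tested. All mice are labelled male, yet Xist was above background, and at most 1 of 4 Y-linked genes was, on 4 arrays: Atm-/- NR 4, Atm-/- veh 3, and arrays 1 and 4 of WT NR.

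The first question was what loss of Atm does to these genes in vehicle-treated cerebellum. By the brightest probe of each gene, 0 of 38 members passed the test between Atm-/- veh and WT veh (limma, Benjamini-Hochberg adjusted p under 0.05 over 37253 probes), where 0.0538% of all 16737 genes did. At an unadjusted p under 0.05 there were 3 members (Atm, Rad9a and Lig4), against 16.8% of all genes. Groups did not overlap for 1 member that was higher and 2 that were lower, against 3.9% and 4.84% of all genes. The median log2 change of the members was -0.06, and over all genes it was -0.03. Changes ran from -0.41 (Brca1) to 0.44 (Topbp1), 33 of 38 were within 0.25 log2 units of 0, and the 95% interval lay within 1 log2 unit of 0 for 37. The Topbp1 value rests on 1 array, WT veh 1, at 7.89. The other WT veh arrays were 9.94, 10.21 and 10.03, and Atm-/- veh ran from 9.87 to 10.13. The second Topbp1 probe changed by -0.08.

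Atm itself is read by 2 probes, and they differ. On the dimmer probe, log2 signal was 8.63, 8.85, 9.03 and 8.86 in WT veh, and 8.65, 8.53, 8.64 and 8.52 in WT NR. In Atm-/- veh it was 7.91, 8.08, 7.97 and 7.92, and in Atm-/- NR 7.88, 7.72, 7.85 and 7.83. Every Atm-/- array was below every WT array. The log2 change was -0.87 (SE 0.08) under vehicle (limma adjusted p = 3.2e-04) and -0.76 (SE 0.08) under NR (limma adjusted p = 0.00135), which is 0.547 and 0.589 of the WT signal. Of all probes, 0.0537% passed in each of these comparisons. The vehicle result missed the threshold when only the 8 veh arrays were fitted (limma adjusted p = 0.0715) and in the methods' test on the deposited z-scores after Benjamini-Hochberg adjustment (adjusted p = 0.192), and the NR result did without the 4 arrays against their labelled sex (-0.77, limma adjusted p = 0.0964).

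On the brighter Atm probe the genotypes lay closer. Its log2 signal was 9.05, 9.19, 9.27 and 8.97 in WT veh, 9.02, 8.96, 8.88 and 8.98 in WT NR, 8.72, 8.78, 8.82 and 8.79 in Atm-/- veh, and 8.79, 9.23, 8.72 and 8.61 in Atm-/- NR. The veh groups did not overlap, while the NR groups did, with Atm-/- NR 2 above every WT NR array. The change was -0.35 (SE 0.11; limma adjusted p = 0.221) under vehicle and -0.12 (SE 0.11; limma adjusted p = 1) under NR. Without the 4 arrays whose sex signal goes against their label (described above), the latter change was 0.00 (adjusted p = 1). Signal of both probes stayed above background on all 16 arrays. Which part of the transcript each probe reads, relative to the disrupted exon, was not tested.

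**Figure D1:**
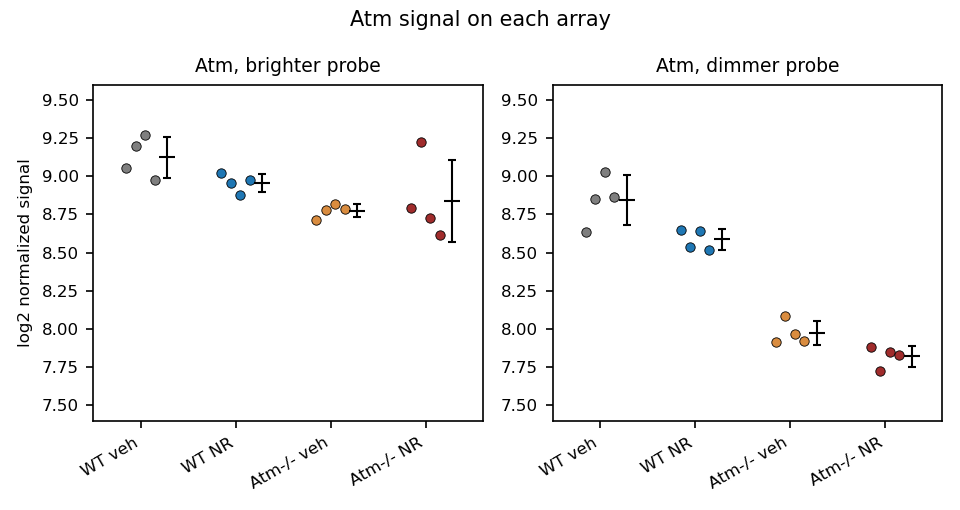
Log2 normalized signal of both Atm probes (y axis) on each of the 16 arrays, by group (x axis). Points are arrays, and the black bar with whiskers is the group mean ± SD (n = 4). All 8 Atm-/- arrays lie between 7.72 and 8.08 on the dimmer probe, below all WT arrays, while on the brighter probe Atm-/- NR 2 lies at 9.23.

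Under NR, 0 of 38 members passed between Atm-/- and WT, where 0.0597% of all genes did. Unadjusted p was under 0.05 for Prkdc and Fanca, against 4.34% of all genes. The NR groups did not overlap for 1 member that was higher (Fanca) and 1 that was lower (Prkdc), against 2.74% and 1.8% of all genes. The median change of the members was 0.00 and that of all genes 0.01. Of the 38, 36 were within 0.25 log2 units of 0, with Chek1 (-0.51) and Fanca (0.50) outside. Over both treatments, 0 members passed on the brightest probe (5 with an unadjusted p under 0.05: Atm, Prkdc, Fanca, Lig4 and Xpc), against 0.221% of all genes past the threshold and 13.1% at the unadjusted p. The dimmer Atm probe fell by 0.82 on the log2 scale in that comparison (SE 0.06; limma adjusted p = 7.2e-06), where 0.201% of all probes passed.

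Prkdc encodes the catalytic kinase of end joining. It was 9.35, 9.24, 9.36 and 9.43 in WT veh, 9.36, 9.29, 9.27 and 9.21 in WT NR, 9.19, 9.21, 9.17 and 9.35 in Atm-/- veh, and 9.16, 9.06, 9.04 and 8.91 in Atm-/- NR. The Atm-/- NR arrays were the lowest of the 4 groups and overlapped neither WT NR nor Atm-/- veh. The change from WT NR was -0.24 (SE 0.07) with an unadjusted limma p of 0.00535 and an adjusted p of 0.701. Chek1, the kinase downstream of ATR, lies within 20 Mb of Atm on the same chromosome and has the dimmest kept probe of the members. Its signal ran from 3.97 to 5.05 in WT veh, 4.32 to 5.04 in WT NR, 4.38 to 4.74 in Atm-/- veh and 3.85 to 4.81 in Atm-/- NR. It is the 1 member whose probe was not above background on all 16 arrays. That probe was above background on 3 arrays of WT veh, 3 of WT NR, 4 of Atm-/- veh and 0 of Atm-/- NR. It passed the filter only through Atm-/- veh, and no comparison of it had a limma adjusted p under 0.05. Without the filter on dim probes, Chek1 passed between NR and veh in Atm-/- mice. A second Chek1 probe, above background on 4 of 16 arrays, enters there, and which probe that call rests on was not examined.

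Fanca, a subunit of the Fanconi anaemia core complex, and Brca1, a recombination protein, each have kept probes that go against each other. The brighter Fanca probe read 7.32, 7.05, 6.94 and 6.69 in WT veh, 7.11, 6.97, 6.78 and 7.28 in WT NR, 7.09, 7.50, 7.31 and 6.88 in Atm-/- veh, and 7.42, 7.74, 7.42 and 7.58 in Atm-/- NR. Every Atm-/- NR array was above every WT NR array, by 0.50 on average (SE 0.16; limma adjusted p = 0.736). The other Fanca probe read 7.19, 6.84, 7.16 and 7.30 in WT veh but 6.13, 6.46, 6.57 and 6.54 in Atm-/- veh, a change of -0.70 (SE 0.14; limma adjusted p = 0.115), where the brighter probe changed by 0.20. For Brca1 the same comparison gave -0.41 (SE 0.24) on the brighter probe and 0.64 (SE 0.23) on the dimmer one, with adjusted p of 0.435 and 0.259. None of these passed the test.

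**Figure D2:**
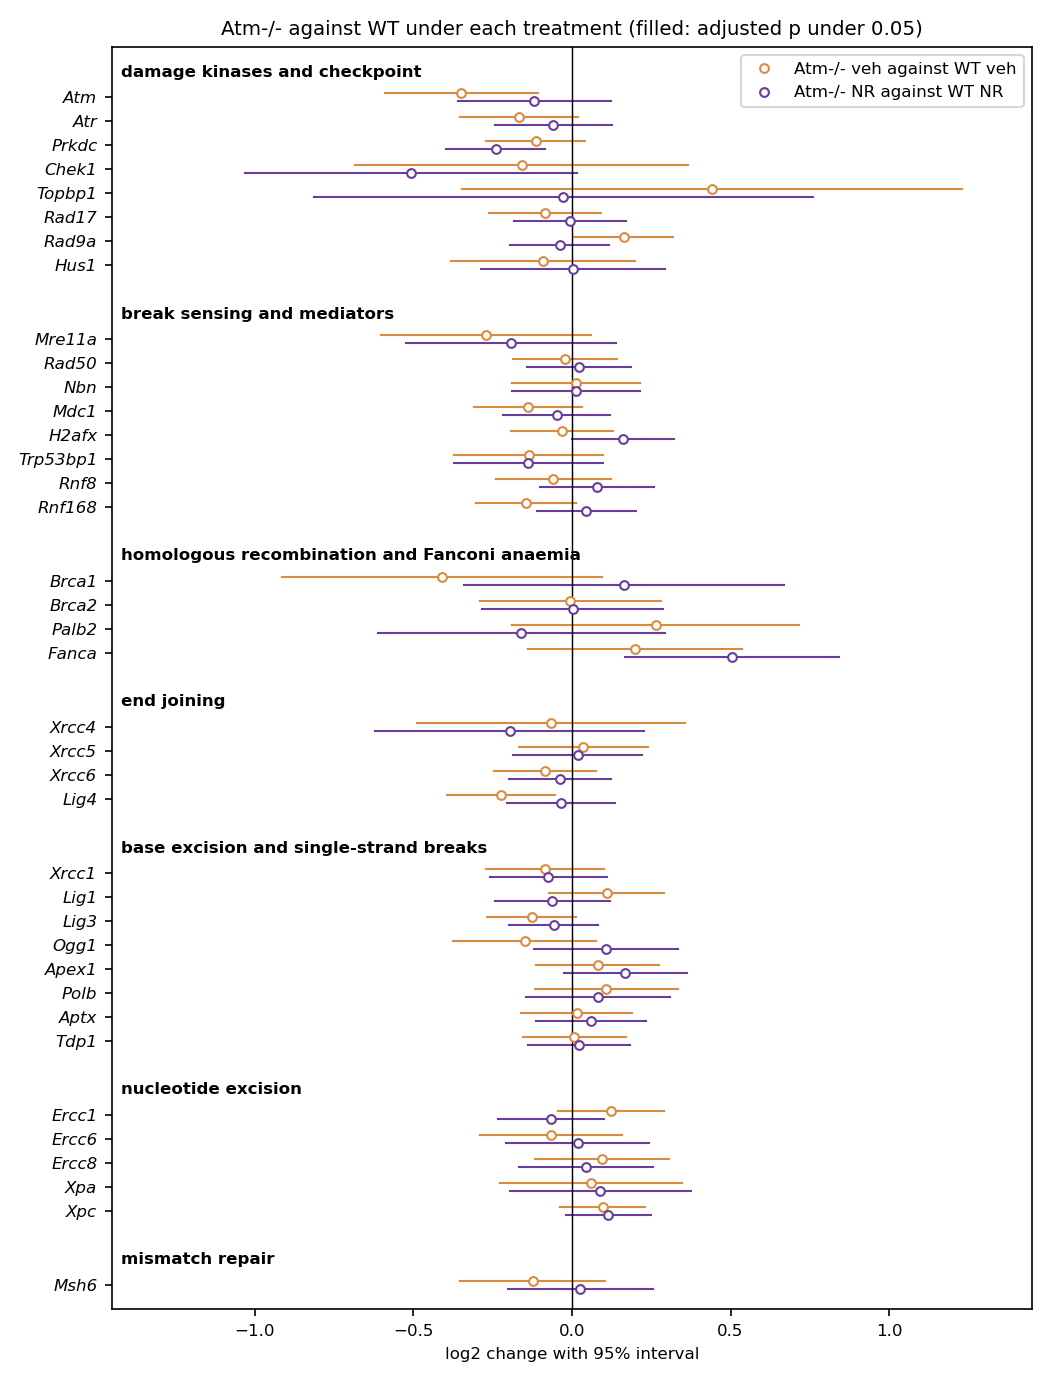
Log2 change between Atm-/- and WT for the brightest probe of each of the 38 measured members, by role (y axis), with 95% interval (x axis, log2 units), under vehicle (orange) and under NR (purple). Filled points would mark an adjusted p under 0.05, and there are none. Most points lie within 0.25 of 0.

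The second question was what NR does in each genotype. In Atm-/- mice 4 of 38 members (10.5%) passed the test between NR and veh, close to the 11.5% of all genes that did. H2afx and Lig4 rose, where 6.67% of all genes did, and Ercc1 and Rad9a fell, where 4.8% did. Another 9 had an unadjusted p under 0.05 (13 in all), against 30.5% of all genes. Groups did not overlap for 5 members that were higher and 5 that were lower, against 16% and 10.3% of all genes. The median change was 0.02 over the members and 0.04 over all genes. In WT mice 0 members passed, where 0% of all genes did. Unadjusted p was under 0.05 for 6 of the 38 (Hus1, H2afx, Xrcc1, Apex1, Ercc1 and Xpc), against 8.84% of all genes. The groups of WT mice did not overlap for 1 member that was higher and 4 that were lower, against 1.71% and 2.87% of all genes.

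Over both genotypes together, 8 of 38 members (21.1%) differed between NR and veh, against 13.4% of all genes. H2afx, Lig4 and Msh6 rose, where 7.44% of all genes did, and Ercc1, Xrcc1, Xpc, Rad9a and Apex1 fell, where 5.94% did. Unadjusted p was under 0.05 for 15 members, against 31% of all genes. The difference between the NR effects of the genotypes passed for 0 members, and 0 had an unadjusted p under 0.05, against 0% and 5.96% of all genes. The largest difference, for Brca1 (0.57), had a limma adjusted p of 0.839. An NR effect that passed in Atm-/- mice and not in WT mice is therefore not shown to differ between them.

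Leaving out the 4 arrays against their labelled sex takes 2 arrays from WT NR and 1 from each Atm-/- group. All probes called between NR and veh then fell from 3366 to 364 in Atm-/- mice and from 4035 to 2131 over both genotypes. In Atm-/- mice 0 members passed without these arrays (7 with an unadjusted p under 0.05). H2afx changed by 0.45 and Ercc1 by -0.41 there, with limma adjusted p of 0.0584 and 0.0605. Rad9a changed by -0.30 and Lig4 by 0.26 there, with limma adjusted p of 0.0882 and 0.126. Over both genotypes 3 passed without them (H2afx, Ercc1 and Hus1). The other 6 genes kept their direction over both genotypes, and their limma adjusted p ran from 0.0598 for Rad9a (-0.23) to 0.22 for Apex1 (-0.16). The log2 changes of Lig4, Msh6, Xrcc1 and Xpc were 0.20, 0.21, -0.18 and -0.16. Of the longer repair list 1 gene (Rad54b) passed in Atm-/- mice without them, and Trp53 and Cdkn1a both did. With all arrays kept and a covariate that marks these 4, Rad9a, H2afx, Lig4 and Ercc1 passed in Atm-/- mice, and 7 members passed over both genotypes. Leaving out 1 array at a time, H2afx and Ercc1 passed in Atm-/- mice in all 16 cases, Rad9a in 11 and Lig4 in 9. Over both genotypes H2afx and Ercc1 passed in all 16, Xrcc1 in 13, Xpc in 10, Rad9a, Lig4 and Msh6 in 3 each and Apex1 in 2.

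Among the kinases and checkpoint genes, Rad9a was the 1 called. It encodes a part of the 9-1-1 clamp, which is loaded at damaged DNA and helps to activate ATR. Its log2 signal was 10.29, 10.28, 10.27 and 10.10 in WT veh, 10.31, 10.06, 10.11 and 10.17 in WT NR, 10.43, 10.34, 10.34 and 10.48 in Atm-/- veh, and 10.18, 10.08, 10.09 and 10.14 in Atm-/- NR. On this probe, the brightest, the Atm-/- veh arrays were above all arrays of the other 3 groups, and 3.9% of all genes were apart and higher than in WT veh. Between Atm-/- veh and WT veh this probe changed by 0.16 and the dimmer Rad9a probe by -0.29. NR changed the brightest probe by -0.27 (SE 0.07; limma adjusted p = 0.0331) in Atm-/- mice and by -0.07 (SE 0.07; limma adjusted p = 0.87) in WT mice. The dimmer Rad9a probe read 0.09 (SE 0.24) in Atm-/- mice, so the fall rests on 1 probe. Hus1, another part of the clamp, changed by -0.22 and -0.31 in Atm-/- and WT mice, and over both genotypes by -0.26 (SE 0.10; limma adjusted p = 0.0914). Prkdc changed by -0.19 (SE 0.07; limma adjusted p = 0.12) in Atm-/- mice. Atr (0.17), Rad17 (0.03), the clamp's loader, and Topbp1 (-0.09), an activator of ATR, had adjusted p of 0.224 or more there. On the dimmer Atm probe NR changed the signal over both genotypes by -0.20 (SE 0.06; limma adjusted p = 0.0409, where 10.8% of all probes passed), while the brighter probe gave -0.05 (SE 0.08).

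H2afx had the lowest adjusted p of the members under NR. It lies within 20 Mb of Atm on the same chromosome. Log2 signal was 12.85, 12.83, 12.86 and 12.99 in WT veh and 13.12, 13.10, 13.19 and 13.06 in WT NR. It was 12.67, 12.89, 12.89 and 12.95 in Atm-/- veh and 13.19, 13.38, 13.30 and 13.25 in Atm-/- NR. NR and veh arrays did not overlap in either genotype. The rise was 0.43 (SE 0.08), or 1.35-fold, in Atm-/- mice (limma adjusted p = 0.00894), and the change in WT mice was 0.24 (SE 0.08), or 1.18-fold, with an adjusted p of 0.522. Over both genotypes it was 0.33 (SE 0.05; limma adjusted p = 0.00466). Vehicle-treated Atm-/- and WT mice differed by -0.03 (SE 0.08).

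Of the other break sensing and mediator genes, none passed on its brightest probe. Mdc1, which binds phosphorylated H2AX, ran from 10.03 to 10.28 in WT veh, 10.14 to 10.34 in WT NR, 9.86 to 10.11 in Atm-/- veh and 10.08 to 10.26 in Atm-/- NR. NR and veh arrays overlapped in both genotypes, and the change in Atm-/- mice was 0.19 (SE 0.08; limma adjusted p = 0.143). Rnf168, a ubiquitin ligase that amplifies the signal, was 12.26, 12.48, 12.34 and 12.24 in WT veh, 12.33, 12.37, 12.32 and 12.39 in WT NR, 12.20, 12.33, 12.11 and 12.10 in Atm-/- veh, and 12.31, 12.41, 12.45 and 12.42 in Atm-/- NR. Atm-/- veh 2 (12.33) overlapped the Atm-/- NR arrays, and the change was 0.21 (SE 0.07; limma adjusted p = 0.0801). Rnf8, the ligase that acts before it, changed by 0.07. The brightest Trp53bp1 probe changed by -0.17, while its further kept probes went the other way, by 0.58 and 0.24. The MRN complex binds broken ends, and its subunits Mre11a, Rad50 and Nbn changed by 0.26, 0.11 and 0.00, none with an adjusted p under 0.289. By the mean over the 8 members of this role, each as its distance from its own mean over all arrays, Atm-/- veh arrays ran from -0.15 to -0.05 and Atm-/- NR arrays from 0.01 to 0.07, without overlap. The WT veh arrays ran from -0.05 to 0.06 and overlapped WT NR (0.00 to 0.13). Such means overlapped between NR and veh in both genotypes for kinases and checkpoint, for recombination and Fanconi anaemia, and for end joining. Of single genes, 16% were apart and higher in Atm-/- NR than in Atm-/- veh. How often means over other sets of genes lie apart was not tested.

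Among recombination and Fanconi genes none passed. Palb2, the bridge between BRCA1 and BRCA2, read 6.66, 6.72, 6.81 and 5.70 in WT veh, 6.74, 6.41, 6.23 and 6.22 in WT NR, 6.65, 6.71, 6.77 and 6.83 in Atm-/- veh, and 6.28, 6.17, 6.55 and 5.97 in Atm-/- NR. Atm-/- NR lay below Atm-/- veh on every array (-0.50, SE 0.21; limma adjusted p = 0.145), and its second probe gave -0.40 (SE 0.24). The brighter Fanca probe changed by 0.34 (SE 0.16; limma adjusted p = 0.174) and the second by 0.35 (SE 0.14; limma adjusted p = 0.119). Brca1 changed by 0.42 (SE 0.24) and Brca2 by 0.08 (SE 0.13). With the mean over the probes of each gene in place of the brightest, Palb2 and Fanca passed in Atm-/- mice and Rad9a and Lig4 did not.

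Lig4, the ligase that seals ends in end joining, was 10.67, 10.88, 10.90 and 10.79 in WT veh, 10.79, 10.92, 11.00 and 10.93 in WT NR, 10.54, 10.70, 10.44 and 10.67 in Atm-/- veh, and 10.91, 10.91, 10.88 and 10.81 in Atm-/- NR. Atm-/- veh was the lowest group on average and overlapped WT veh, and Atm-/- NR lay within the range of WT NR. NR changed it by 0.29 (SE 0.08; limma adjusted p = 0.0378) in Atm-/- mice and by 0.10 (SE 0.08; limma adjusted p = 0.826) in WT mice. Its second probe went the other way, by -0.20 (SE 0.13; limma adjusted p = 0.327) in Atm-/- mice. Xrcc4, the partner of the ligase, and the Ku subunits Xrcc5 and Xrcc6, which bind DNA ends, changed by 0.07, 0.05 and 0.03 there.

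Of the 8 base excision and single-strand break genes, 2 fell with NR over both genotypes, where 5.94% of all genes did, and 5 had a negative change, as 7930 of all 16737 genes had. Xrcc1 encodes the scaffold of single-strand break repair. It was 12.97, 13.02, 13.19 and 13.02 in WT veh, 12.84, 12.88, 12.89 and 12.62 in WT NR, 12.91, 12.88, 12.96 and 13.10 in Atm-/- veh, and 12.90, 12.73, 12.65 and 12.66 in Atm-/- NR. The WT groups did not overlap, and in Atm-/- mice 1 NR array (12.90) reached into the veh range. The change was -0.24 (SE 0.06; limma adjusted p = 0.0276) over both genotypes, with -0.24 in WT and -0.23 in Atm-/- mice.

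Apex1, the endonuclease that cuts abasic sites, has 3 kept probes. The brightest was 12.24, 12.15, 11.97 and 12.33 in WT veh, 11.96, 11.96, 11.96 and 11.78 in WT NR, 12.22, 12.28, 12.30 and 12.22 in Atm-/- veh, and 12.00, 12.25, 12.16 and 11.92 in Atm-/- NR. Over both genotypes it changed by -0.21 (SE 0.06; limma adjusted p = 0.0471), and the second by -0.34 (SE 0.07; limma adjusted p = 0.00922). On the second probe the fall also passed in Atm-/- mice alone, at -0.39 (SE 0.09; limma adjusted p = 0.0216), where the brightest gave -0.17. The third and dimmest gave 0.64 (SE 0.39), with arrays from 6.25 to 9.24 in Atm-/- NR, so probes of this gene disagree.

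Lig1, the replicative ligase that also seals nicks after base excision, was 12.05, 12.11, 12.02 and 11.87 in WT veh, 11.93, 11.81, 11.94 and 12.09 in WT NR, 12.05, 12.16, 12.22 and 12.04 in Atm-/- veh, and 11.80, 11.91, 11.79 and 12.03 in Atm-/- NR. In Atm-/- mice the groups just failed to overlap, with a change of -0.24 (SE 0.08; limma adjusted p = 0.0904). The second Lig1 probe changed by 0.13 there. The other 5 genes of the role are Lig3, a ligase partner of XRCC1, Ogg1, which removes oxidised guanine, Polb, the gap-filling polymerase, Aptx, which releases stalled ligation products, and Tdp1, which removes trapped topoisomerase. In Atm-/- mice they changed by 0.08, 0.17, 0.00, 0.01 and -0.09, each with an adjusted p of 0.311 or more. Lig3 and Ogg1 were higher on every Atm-/- NR array than on every Atm-/- veh array, as 16% of all genes were. For Lig3 the groups nearly touched, with the highest Atm-/- veh array at 11.0197 and the lowest Atm-/- NR array at 11.0201. By the mean over the 8 members, WT veh arrays ran from -0.03 to 0.10 and WT NR arrays from -0.07 to -0.03, without overlap, while Atm-/- veh (0.00 to 0.07) and Atm-/- NR (-0.06 to 0.01) overlapped.

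Of the 5 nucleotide excision genes, 2 fell with NR over both genotypes, where 5.94% of all genes did. The change was negative for 4 of the 5 in each genotype, and for 7542 of all 16737 genes in Atm-/- mice and 8618 in WT mice. Ercc1, the partner of the XPF nuclease, was 11.95, 11.93, 11.80 and 11.83 in WT veh and 11.77, 11.69, 11.55 and 11.59 in WT NR. It was 12.06, 11.92, 11.92 and 12.09 in Atm-/- veh and 11.72, 11.61, 11.52 and 11.49 in Atm-/- NR. NR and veh arrays did not overlap in either genotype. The change was -0.41 (SE 0.08), to 0.751 of the veh signal, in Atm-/- mice (limma adjusted p = 0.0114), and the change in WT mice was -0.22 (SE 0.08; limma adjusted p = 0.571). Over both genotypes it was -0.32 (SE 0.06; limma adjusted p = 0.00656). The second Ercc1 probe gave -0.30 (SE 0.10; limma adjusted p = 0.0704) in Atm-/- mice.

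Xpc, the sensor of bulky lesions, was 10.68, 10.59, 10.68 and 10.57 in WT veh, 10.53, 10.45, 10.44 and 10.39 in WT NR, 10.72, 10.64, 10.80 and 10.75 in Atm-/- veh, and 10.57, 10.65, 10.54 and 10.51 in Atm-/- NR. Over both genotypes it changed by -0.17 (SE 0.04; limma adjusted p = 0.0279), nearly alike in WT (-0.18) and Atm-/- mice (-0.16). Its dimmer probe gave 0.16 (SE 0.09; limma adjusted p = 0.273). Ercc6 and Ercc8 act where lesions stall transcription, and Xpa checks the damage. In Atm-/- mice they changed by -0.14, 0.00 and -0.11, and in WT mice by -0.22, 0.06 and -0.14. By the mean over the 5 genes, Atm-/- veh arrays ran from 0.08 to 0.14 and Atm-/- NR arrays from -0.14 to 0.03, without overlap. The WT groups overlapped, from -0.10 to 0.12 in WT veh and from -0.14 to -0.05 in WT NR.

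Msh6, a subunit of the main mismatch-recognition complex, was 12.46, 12.95, 12.97 and 12.70 in WT veh, 12.94, 12.86, 12.95 and 13.09 in WT NR, 12.57, 12.80, 12.58 and 12.64 in Atm-/- veh, and 12.93, 12.93, 12.99 and 13.09 in Atm-/- NR. Every Atm-/- NR array was above every Atm-/- veh array, while WT veh spanned the widest range and overlapped WT NR. The rise was 0.26 (SE 0.08; limma adjusted p = 0.0391) over both genotypes, and the change was 0.34 (SE 0.11; limma adjusted p = 0.0607) in Atm-/- mice.

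**Figure D3:**
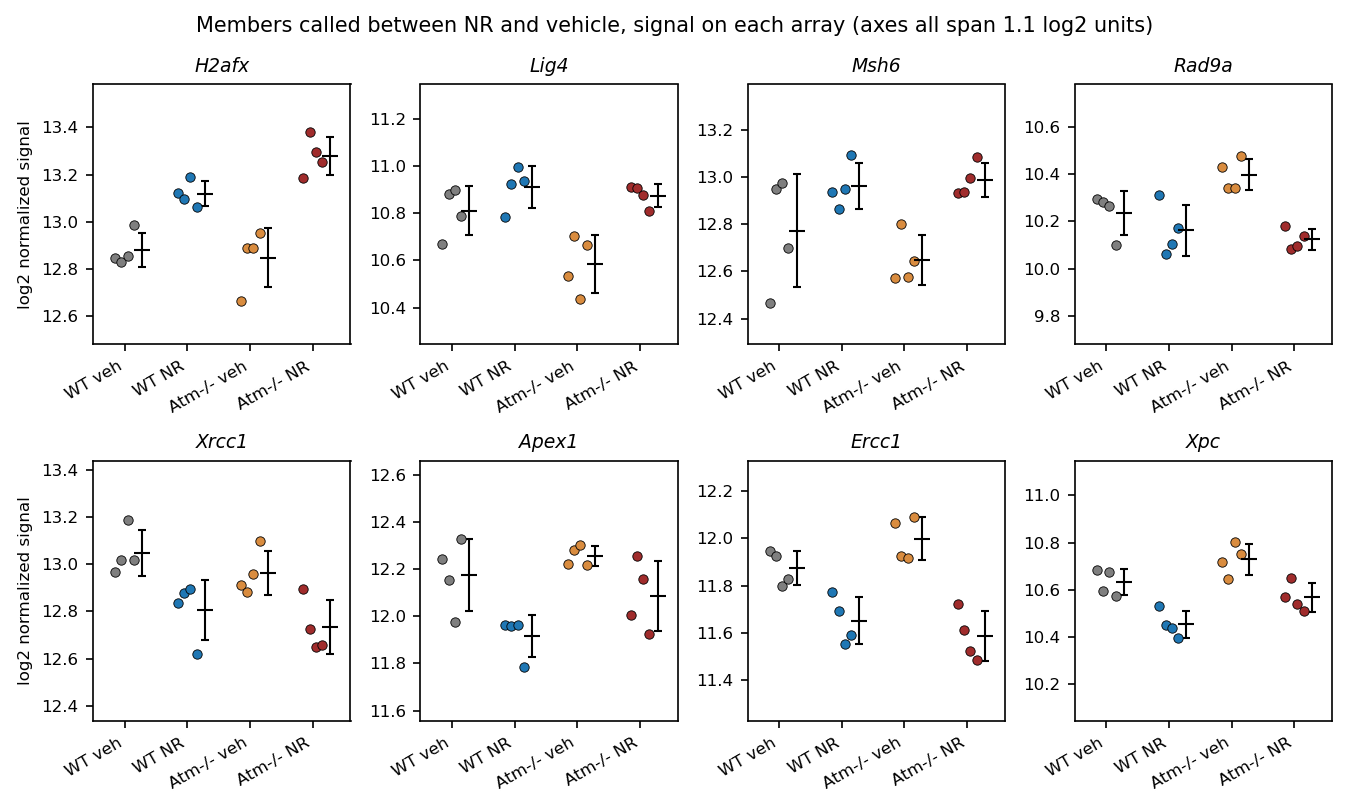
Log2 normalized signal (y axis, each panel spans the same range) of the brightest probe of the 8 members called between NR and veh over both genotypes, on each array by group (x axis). Points are arrays, and black bars with whiskers are group means ± SD (n = 4). NR and veh arrays are apart in both genotypes for H2afx, higher with NR, and for Ercc1, lower with NR.

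**Figure D4:**
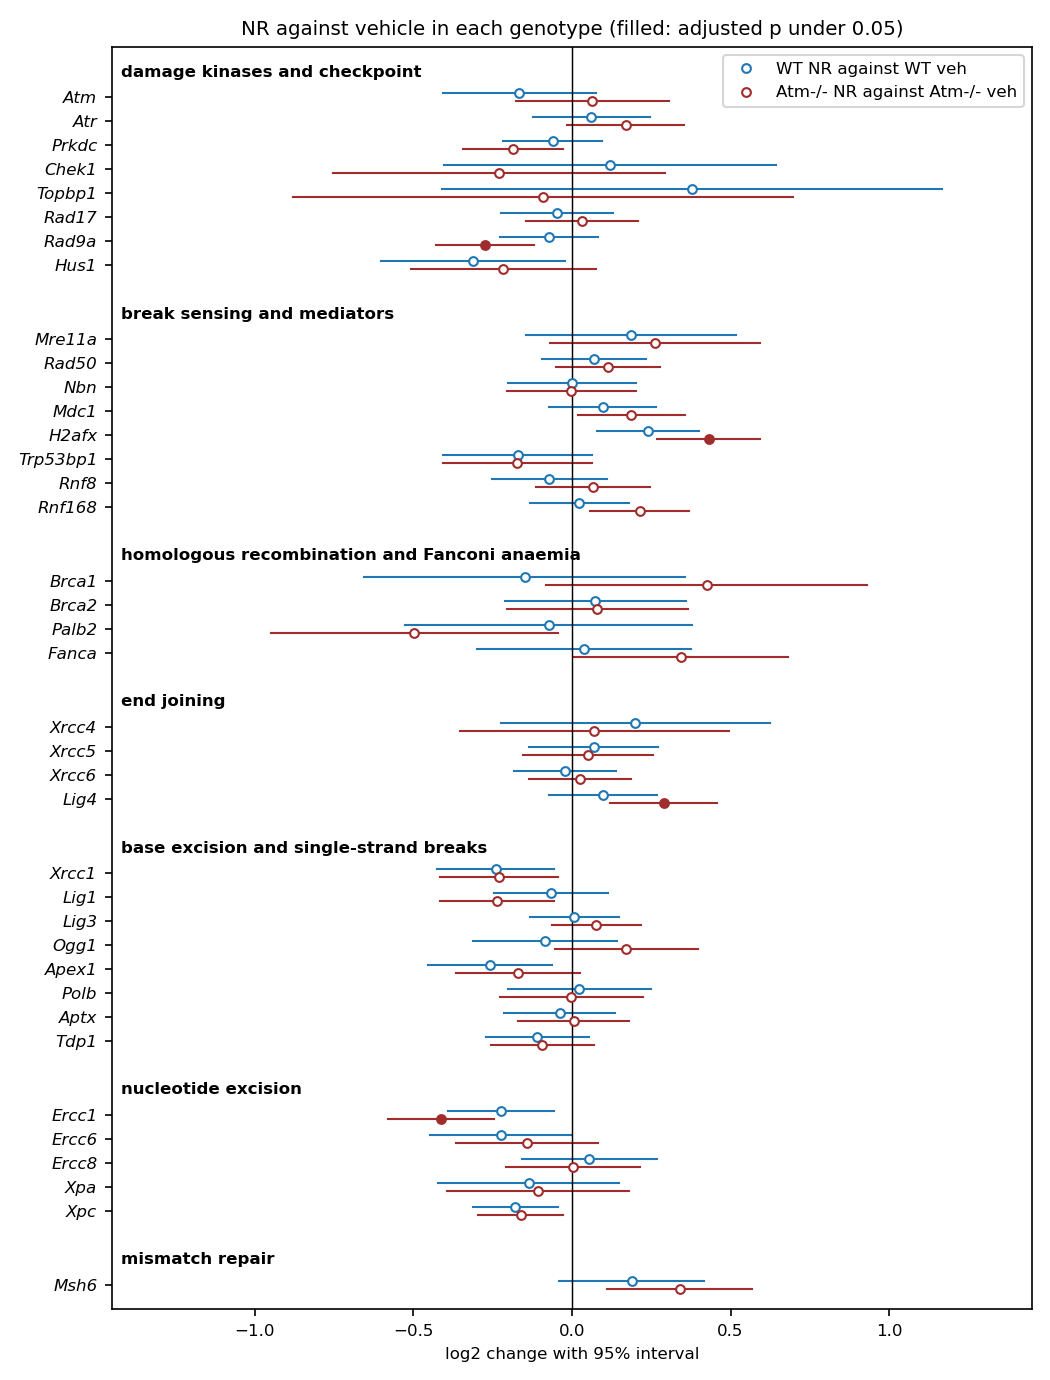
Log2 change between NR and veh for the brightest probe of each of the 38 measured members, by role (y axis), with 95% interval (x axis, log2 units), in WT (blue) and Atm-/- mice (red). Filled points mark an adjusted p under 0.05, which are Rad9a, H2afx, Lig4 and Ercc1 in Atm-/- mice. Of the 5 nucleotide excision genes, 4 lie left of 0 in both genotypes.

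How far a call rests on its probe could be checked for the 18 members with more than 1 kept probe. They have 21 further probes, which between NR and veh in Atm-/- mice went in the direction of the brightest probe in 7 cases and in the other in 14. In WT mice they split 10 and 11, and between genotypes under vehicle 13 and 8 and under NR 17 and 4. Of the 21, 1 passed in Atm-/- mice (an Apex1 probe, lower), where 9.04% of all probes did. H2afx, Xrcc1 and Msh6 have 1 kept probe each. The further probes are dimmer than the brightest one by construction, and whether that bears on the split was not tested.

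**Figure D5:**
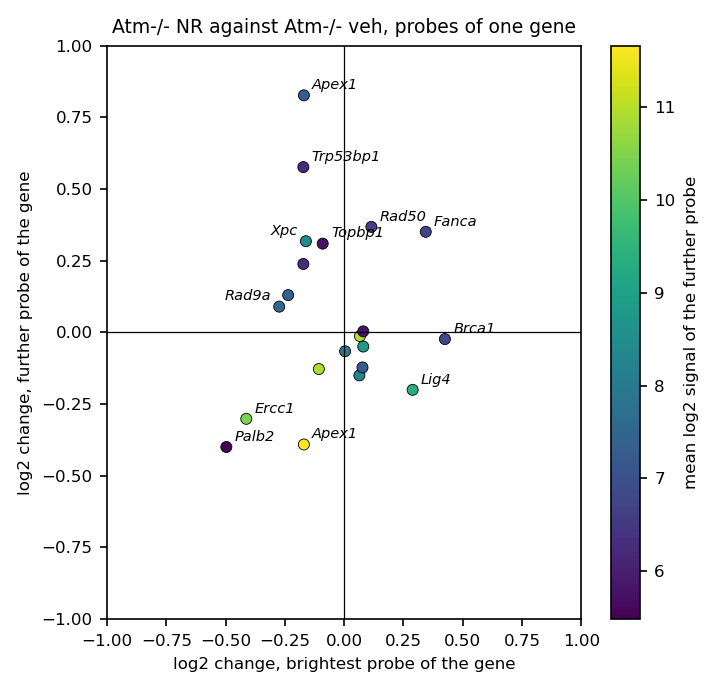
Log2 change between Atm-/- NR and Atm-/- veh for each of 21 further probes (y axis) against the brightest probe of the same gene (x axis), with colour for the mean log2 signal of the further probe. Points in the upper left and lower right quadrants (14 of 21) disagree in direction. The Ercc1 probes both lie below 0, and 1 Apex1 probe lies at 0.83 while another lies at -0.39.

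Repair genes beyond the 40 were read from a list of 99, of which 94 were measured. Between NR and veh in Atm-/- mice 9 passed (9.57%, against 11.5% of all genes), 8 higher and 1 lower, where 6.67% and 4.8% of all genes were. Among those higher were Rad54b, a recombination helicase relative (0.64, SE 0.10; limma adjusted p = 0.00574), Fancl, the Fanconi ubiquitin ligase (0.55, SE 0.14), Polk, a translesion polymerase (0.44, SE 0.10), Rad23b, the partner of XPC (0.39, SE 0.09), Tdp2, which frees trapped topoisomerase (0.37, SE 0.10), Rbbp8, which starts end resection (0.31, SE 0.08), and Rpa3, of the single-strand binding complex (0.29, SE 0.09). Rad52 was lower (-0.31, SE 0.09). Their limma adjusted p ran up to 0.0483. Over both genotypes 10 passed (10.6%, against 13.4% of all genes), with Gtf2h1 (0.23) added. Between genotypes 0 of the 94 passed under vehicle, where 0.0538% of all genes did, and 0 under NR, where 0.0597% did. Under vehicle 9 had an unadjusted p under 0.05, against 16.8% of all genes, among them Rad54b at -0.31 and Cetn2 at -0.24. Under NR 1 had, against 4.34% of all genes. It was Neil1 (0.33), which lies within 20 Mb of Atm, followed by Rad51c at 0.90. In WT mice 0 passed with NR, where 0% of all genes did. There 4 had an unadjusted p under 0.05, against 8.84% of all genes, the lowest for Polh at -0.55, Xrcc3 at 0.37 and Tdp2 at 0.22.

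Of 24 genes of the p53 response, which ATM activates, 23 were measured. Between NR and veh 2 of the 23 passed in Atm-/- mice (8.7%, against 11.5% of all genes) and 3 over both genotypes (13%, against 13.4%). In Atm-/- mice those were Trp53, the p53 gene itself (-0.74, SE 0.16; limma adjusted p = 0.0165), and Cdkn1a, the p21 cell cycle inhibitor (-1.13, SE 0.29; limma adjusted p = 0.0309), both lower with NR. Over both genotypes Rrm2b, a ribonucleotide reductase subunit, rose (0.27, SE 0.08; limma adjusted p = 0.0392). Between genotypes under vehicle 0 of the 23 passed, where 0.0538% of all genes did. There 3 had an unadjusted p under 0.05, against 16.8% of all genes, with Cdkn1a among them (0.72, SE 0.29; limma adjusted p = 0.296).

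Markers of 11 cell types were read too. Defining markers of cerebellar cells (Calb1 and Pcp2 of Purkinje cells, Gabra6 of granule cells) were above background on every array. The level of a cell type on an array is the mean log2 signal over its measured markers. With 4 arrays against 4, exact permutation cannot give a p under 0.0286. After adjustment over the 44 comparisons of mean marker levels, the 3 at that minimum had an exact permutation adjusted p of 0.419. These tests therefore could not show whether marker levels differed. Of the 10 markers of dividing cells, in which many repair genes are also active, 7 were measured. Their mean level ran from 6.65 to 7.09 in Atm-/- NR and from 6.82 to 8.39 in Atm-/- veh (exact permutation p = 0.143, adjusted p = 0.629). The 8.39 is Atm-/- veh 3, one of the arrays against its labelled sex, and the other Atm-/- veh arrays were 7.19, 6.82 and 6.94. That array also had the highest mean levels of red blood cell (15.88) and endothelial (12.71) markers. The level of the dividing-cell markers ran from 6.82 to 7.08 in WT veh and from 6.79 to 7.08 in WT NR. Mki67, Ccnb1, Ccna2, Birc5, Plk1 and Cdc20 were above background on all 16 arrays. Aurkb was above background on 8, Cdk1 and Bub1 on 5 each and Top2a on 2. Mean levels did not overlap in 3 comparisons: oligodendrocytes (-0.43) and choroid plexus (-0.89) between Atm-/- NR and WT NR, and meninges (-0.46) between Atm-/- veh and WT veh. WT veh 4 stood apart for choroid plexus (14.32, the other 15 arrays from 8.57 to 10.67) and was the highest for meninges (11.67, the others up to 11.18) and microglia (12.27, the others up to 11.78). The part of marker levels in the members' values was not tested. In RNA from whole tissue, fewer cells of a type and less RNA per cell cannot be told apart.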

How the data were processed

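Cerebellar RNA of 16 mice (4 per group) was read on Agilent 1-colour arrays. The deposited scanner files hold, for each spot, an intensity that Feature Extraction 12.0.3.1 (design build mm9) corrected for background. The deposited table of z-scores, a score per probe that the authors made by quantile normalization and scaling within each array, served as an alternative. Intensities were put on the log2 scale and quantile normalized, outlier spots were set aside and spots of a probe averaged. Probes had to exceed background on every array of some group (37253 of 56605 probes), and 32994 probes were named through RefSeq accessions. A gene is represented by its brightest kept probe. Group means over 16 arrays were compared with limma 3.58.1 in R 4.3.3 (12 residual degrees of freedom), with Benjamini-Hochberg adjustment over the kept probes. Mean marker levels and array measures were compared by two-sided exact permutation. The scripts were tested on simulated data.

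All members of the list were described, and other genes were named where they passed or had the 3 lowest p-values in a comparison, except 1 gene that is not reported here. The members and lists were chosen with earlier results of these data known. Alternatives covered scaling, background correction, filters, probe choice, replicate blocks, single arrays left out and the sex-discordant arrays. Replicates are separate mice, and the number of arrays limits the precision. No spot was saturated (0 probes on each array).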

Additional observations from a re-analysis of the deposited data

Results flagged for a closer look

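In 12 of 156 groups of 4 arrays (39 member probes), 1 array stood further from the nearest other than the 95% critical value of Dixon's test for 4 values allows, and chance gives about 1 in 20 groups. All values are log2 signal. In WT veh, array 1 was the lowest for Topbp1 (7.89, the nearest array at 9.94) and for Ercc6 (8.63, nearest 8.78). Array 4 was the lowest for Rad9a (10.10, nearest 10.27) and Palb2 (5.70, nearest 6.66) and the highest for H2afx (12.99, nearest 12.86). In WT NR, array 1 was the highest for Rad50 (10.54, nearest 10.42) and Xrcc4 (11.46, nearest 10.37), array 2 the highest for Brca1 (7.08, nearest 6.83), and array 4 the highest for Rnf8 (13.46, nearest 13.39) and the lowest for Apex1 (11.78, nearest 11.96). In Atm-/- veh, array 3 was the lowest for Tdp1 (11.47, nearest 11.64). In Atm-/- NR, array 4 was the highest for Lig3 (11.19, nearest 11.04).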

How the results depend on the processing

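Of 1553 recomputed values of 62 results, 1338 kept their direction and side of the threshold or stayed within 1.5 times the count, 71 counts moved, 107 calls were lost, 33 were gained and 4 directions turned. Without the 4 arrays against their labelled sex, members called fell from 4 to 0 between NR and veh in Atm-/- mice and from 8 to 3 over both genotypes. The other repair genes called, an alternative chosen after seeing the data, went from 9 to 1 and from 10 to 3. All probes called went from 20 to 11 (genotype under vehicle), 3366 to 364 (NR in Atm-/- mice), 0 to 32 (NR in WT mice), 75 to 49 (genotype over both treatments), 4035 to 2131 (NR over both genotypes) and 0 to 5 (difference of the NR effects). With a covariate that marks the 4 arrays against their labelled sex, 159 probes differed by genotype over both treatments. With that covariate the same 4 members as in the main fit passed with NR in Atm-/- mice. Over both genotypes 7 passed with NR (Rad9a, H2afx, Lig4, Xrcc1, Lig1, Ercc1 and Xpc). All probes called in these 2 comparisons stayed within 1.5 times the main count.

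Members called with NR over both genotypes were 5 without the filter on dim probes, 5 with the replicate block and 5 with the mean over a gene's probes. Without that filter and with that block, all probes called in this comparison stayed within 1.5 times the main count of 4035. The 3rd setting, the mean over a gene's probes, is taken up next. The mean over probes gave 1 member (Atm) between genotypes under vehicle and 1 (Atm) over both treatments. Genes and probes without a gene name, counted together, numbered 1866 called with NR in Atm-/- mice and 2444 over both genotypes. Replicate numbers did not pair arrays (0 of 16 correlated best with their own number), and with the replicate block the same 4 members passed in Atm-/- mice. A t-test between 2 groups on the deposited z-scores was also run, without the z-ratio, false discovery rate and ANOVA thresholds of the paper's methods. At an unadjusted p of at most 0.05 it called 4 members and 4290 probes (genotype under vehicle), 3 and 2359 (under NR), 14 and 10391 (NR in Atm-/- mice) and 6 and 2812 (NR in WT mice). After Benjamini-Hochberg it called 2 and 10 probes between genotypes under vehicle and under NR, and a fit of only those veh arrays called 7.

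Leaving out 1 array at a time, members called ranged from 2 (without Atm-/- veh 1, Atm-/- veh 4, Atm-/- NR 2, 3 or 4) to 6 (without Atm-/- veh 2) with NR in Atm-/- mice and from 2 (without Atm-/- veh 4, Atm-/- NR 3 or 4) to 7 over both genotypes, and stayed at 0 to 0 in the other comparisons. Probes called ranged from 13 to 47 (genotype under vehicle), 12 to 24 (under NR), 845 (without Atm-/- veh 1) to 4469 (NR in Atm-/- mice), 0 to 6 (NR in WT mice), 49 to 92 (genotype), 2255 to 4672 (NR) and 0 to 2 (difference). Directions turned for the brighter Atm probe under NR without the sex-discordant arrays (0.00015, limma adjusted p = 1) and, with the mean over probes, for Rad9a between genotypes under vehicle (-0.0638), Xpc with NR in Atm-/- mice (0.0780) and Apex1 with NR over both genotypes (0.0289). The causes were not tested.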
